A study of Rattus norvegicus with 31 samples.

Results

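A set of 8 genes of cholesterol synthesis were followed through the kidney cortex and the colon of rats on high salt. The genes were Hmgcs1, Idi1, Fdps, Fdft1, Sqle, Cyp51, Sc5d and Dhcr7, taken by symbol from a matrix of 20207 genes. All 8 were counted in both tissues and all 8 passed the filter on low counts. The study compared a group fed high salt and supplemented with calcitriol, the hormone form of vitamin D (CAL), a high-salt model group (HS) and a normal control group (NC). High salt was thus common to CAL and HS, and the labels list no group given calcitriol alone. There were 6 CAL, 5 HS and 5 NC libraries of the colon, and 6 CAL, 4 HS and 5 NC libraries of the kidney cortex. The strain, sex and age of the rats and the doses and durations were not given in the sources used here. Nothing in the labels says that replicates came from separate animals, so p-values measure the spread between these samples, which may be technical.

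Cholesterol is built from acetyl-CoA in a long chain of enzymes, most of them in the endoplasmic reticulum. The mevalonate branch makes farnesyl diphosphate, squalene synthase commits it to sterols, and a late set of enzymes trims lanosterol down to cholesterol. The genes are turned on together by SREBP-2, a membrane-bound transcription factor that is released for cleavage when sterol in the membrane is low and is held back by the Insig proteins when it is high. Kidney tubules and intestinal epithelium both make cholesterol, and the gut takes it up from the diet as well. In this order, Hmgcs1 is the cytosolic HMG-CoA synthase, Idi1 isomerises isopentenyl diphosphate, and Fdps joins the isoprene units into farnesyl diphosphate. Fdft1 is squalene synthase and Sqle is squalene epoxidase, a rate-limiting step of the sterol part. Cyp51 removes the 14-alpha methyl group of lanosterol, Sc5d introduces the C5 double bond, and Dhcr7 reduces 7-dehydrocholesterol to cholesterol. The substrate of Dhcr7 is also the precursor from which skin makes vitamin D.

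Promoters of these genes are shown next. The genes varied together between colon libraries, as described further on, and the part of the promoters in that was not tested. Of the 8 genes, 6 were found in the RefSeq promoter table, which is of the GRCr8 build while the counts are on Rnor_6.0. Sqle and Fdft1 were not. Each sequence covers 250 bases before to 50 bases after the start of transcription, in the direction of the gene. Searched on both strands were the sterol response element TCACNCCAC, the element TCACACGAG of Fdps, the CCAAT box bound by NF-Y and the GC box GGGCGG bound by Sp1. TCACACGAG was added to the search after the Fdps sequence had been seen. Capitals mark a match on either strand, so that ATTGG is a CCAAT box and CCGCCC a GC box on the other strand. The 5 shown are Hmgcs1 (chr2:53382054-53382353, + strand), Idi1 (chr17:66547475-66547774, - strand), Fdps (chr2:176804767-176805066, - strand), Sc5d (chr8:51538228-51538527, - strand) and Dhcr7 (chr1:208444184-208444483, + strand).
Hmgcs1: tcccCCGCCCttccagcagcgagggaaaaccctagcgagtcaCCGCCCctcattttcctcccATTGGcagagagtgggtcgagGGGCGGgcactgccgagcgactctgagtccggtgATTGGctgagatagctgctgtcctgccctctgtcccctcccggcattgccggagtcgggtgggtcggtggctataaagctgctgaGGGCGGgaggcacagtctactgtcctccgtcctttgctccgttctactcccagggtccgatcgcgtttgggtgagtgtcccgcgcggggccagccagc
Idi1: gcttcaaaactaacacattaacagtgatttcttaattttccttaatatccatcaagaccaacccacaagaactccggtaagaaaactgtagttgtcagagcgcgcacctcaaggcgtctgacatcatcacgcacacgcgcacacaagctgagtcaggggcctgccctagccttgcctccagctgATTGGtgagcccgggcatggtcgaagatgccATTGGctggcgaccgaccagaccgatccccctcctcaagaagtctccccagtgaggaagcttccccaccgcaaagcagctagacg
Fdps: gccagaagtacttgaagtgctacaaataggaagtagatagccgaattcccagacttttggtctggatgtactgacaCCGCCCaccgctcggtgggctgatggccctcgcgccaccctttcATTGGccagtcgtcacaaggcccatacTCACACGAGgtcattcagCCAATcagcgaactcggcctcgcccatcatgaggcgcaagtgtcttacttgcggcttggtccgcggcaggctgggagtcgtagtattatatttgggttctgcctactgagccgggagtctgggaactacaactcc
Sc5d: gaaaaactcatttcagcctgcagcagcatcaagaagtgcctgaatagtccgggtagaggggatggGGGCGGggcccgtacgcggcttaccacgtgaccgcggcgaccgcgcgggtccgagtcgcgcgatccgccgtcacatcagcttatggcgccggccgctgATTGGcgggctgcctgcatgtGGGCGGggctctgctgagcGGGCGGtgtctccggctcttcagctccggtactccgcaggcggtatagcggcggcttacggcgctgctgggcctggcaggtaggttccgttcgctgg
Dhcr7: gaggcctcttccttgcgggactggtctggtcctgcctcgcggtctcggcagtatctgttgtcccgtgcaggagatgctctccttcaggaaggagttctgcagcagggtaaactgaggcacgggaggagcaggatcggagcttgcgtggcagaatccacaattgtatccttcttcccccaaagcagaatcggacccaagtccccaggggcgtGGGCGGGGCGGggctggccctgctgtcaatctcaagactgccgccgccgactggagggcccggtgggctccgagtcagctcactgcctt

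A CCAAT box was present in 4 of the 6 promoters, those of Hmgcs1, Idi1, Fdps and Sc5d, against 37.5% of 33469 promoters of the same length. Hmgcs1 held 2 of them, starting 188 and 133 bases before the start of transcription, and Idi1 held 2, at 66 and 35 bases. In Fdps the letters TCACACGAG lay between 2 CCAAT boxes, beginning 103 bases before the start, and were found in 0.123% of all promoters. GC boxes were present in 5 of the 6, all but Idi1, against 33.1% of all promoters. Dhcr7 held 2 overlapping GC boxes and no CCAAT box in this window. TCACNCCAC was in none of the 6 and in 1.12% of all promoters. These matches describe letters in a window, and the shares were not adjusted for base composition.

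RNA of whole tissue was sequenced, and the deposited values are read counts per gene. Totals ran from 267976 to 918820 counts per colon library and from 289529 to 2265164 per cortex library, with 10618 to 13776 genes counted. Levels are given as CPM, the reads of a gene per 1e6 reads, after trimmed-mean (TMM) scaling over the genes tested in the tissue. They compare libraries for 1 gene and not 1 gene with another, because transcript lengths were not used. In bulk tissue, fewer cells of a type and less RNA per cell cannot be told apart. A gene is called when its adjusted p from the edgeR quasi-likelihood test is under 0.05. Marker sums, here and below, are plain CPM over all counts of a library, without TMM scaling. Summed proximal tubule markers, 9 genes, averaged 12366 CPM in CAL, 12251 in HS and 13730 in NC cortex, and summed colon epithelium markers, 9 genes of the 10 listed, averaged 17611 CPM in CAL, 14271 in HS and 16856 in NC colon. The adrenal cortex, a neighbour of the kidney that makes much sterol, has the defining markers Star, Nr5a1 and Mc2r, which were at 0 in all cortex groups. The sum of its 6 measured markers stayed between 0 and 5.63 CPM in the cortex.

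In the kidney cortex, 2 of the 8 genes were called between high salt and control, in opposite directions. Dhcr7 fell and Sc5d rose in HS against NC, and the other 6 genes did not pass the test. Of all 7524 genes tested, 831 (11.0%) were called, 553 (7.35%) higher and 278 (3.69%) lower, and the 8 genes held 1 call each way, too few to set against that background. The median log2 fold change of the 8 genes was 0.34, against -0.01 over all genes, with 5 above 0 and 3 below.

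Dhcr7 read 42.1, 22.9, 21.0 and 39.4 CPM in the HS cortex, against 46.8, 62.9, 81.0, 45.3 and 88.4 CPM in the NC cortex. The 4 HS values were all under the 5 NC values. The means were 31.4 ± 10.9 CPM in HS (SD, n = 4) and 64.9 ± 19.5 CPM in NC (n = 5). Dhcr7 thus had a log2 fold change of -0.995 (SE 0.29, adjusted p = 0.0295), a fold of 0.502. The depth behind it was thin, from 6 to 33 reads per HS library and 23 to 74 per NC library. Without HS replicate 2 the adjusted p was 0.125, without HS replicate 3 it was 0.0630, without NC replicate 3 it was 0.0638 and without NC replicate 5 it was 0.0725.

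Sc5d read 195.1, 149.5, 140.2 and 128.9 CPM in the HS cortex, against 86.5, 111.3, 118.8, 94.6 and 111.7 CPM in the NC cortex. All 4 HS libraries were above all 5 NC libraries. Its mean was 153.4 ± 29.0 CPM in HS and 104.6 ± 13.5 CPM in NC, a log2 fold change of 0.54 (SE 0.18, adjusted p = 0.0486). That call ended in 13 of 18 alternatives. Removing any 1 of the 9 libraries ended it, with adjusted p = 0.205, 0.0973, 0.0578 and 0.05004 without HS replicates 1 to 4, and 0.104, 0.0554, 0.0563, 0.0945 and 0.0644 without NC replicates 1 to 5.

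Fdft1, the entry to the sterol part, had its groups apart as well but missed the threshold. It read 170.7, 196.8, 192.8 and 198.1 CPM in HS, against 141.8, 154.6, 145.8, 141.9 and 153.4 CPM in NC. The log2 fold change was 0.36 (SE 0.12, adjusted p = 0.0555). Of 18 alternatives, 1 called it, limma voom with an adjusted p of 0.0317, and with no filter on low counts the adjusted p was 0.196. Groups that do not overlap were found for 3 of the 8 genes, and for 13.1% of all genes tested.

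The mevalonate genes and the remaining sterol genes overlapped between HS and NC cortex. Idi1 had 71.7 CPM in HS replicate 2 and 17.7 to 31.6 CPM in the other HS libraries, against 15.6 to 31.4 CPM in NC, a log2 fold change of 0.74 (SE 0.34, adjusted p = 0.159). HS replicate 2 stood above the NC range, and replicate 3 lay at its upper edge, 31.6 against 31.4 CPM. Hmgcs1 read 51.0, 41.2, 17.5 and 23.9 CPM in HS, against 21.3 to 31.4 CPM in NC (log2 fold change 0.31, adjusted p = 0.514). Here HS libraries lay on both sides of the NC range. Sqle ran from 22.2 to 45.8 CPM in HS, against 15.8 to 32.3 CPM in NC (0.40, adjusted p = 0.429). Fdps ran from 90.9 to 132.5 CPM in HS, against 109.2 to 151.2 CPM in NC (-0.17, adjusted p = 0.461), and Cyp51 from 17.5 to 50.4 CPM, against 18.4 to 39.9 CPM (-0.05, adjusted p = 0.932). Few reads stood behind Hmgcs1, Idi1, Sqle and Cyp51 in the cortex, as few as 5 per library.

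**Figure D1:**
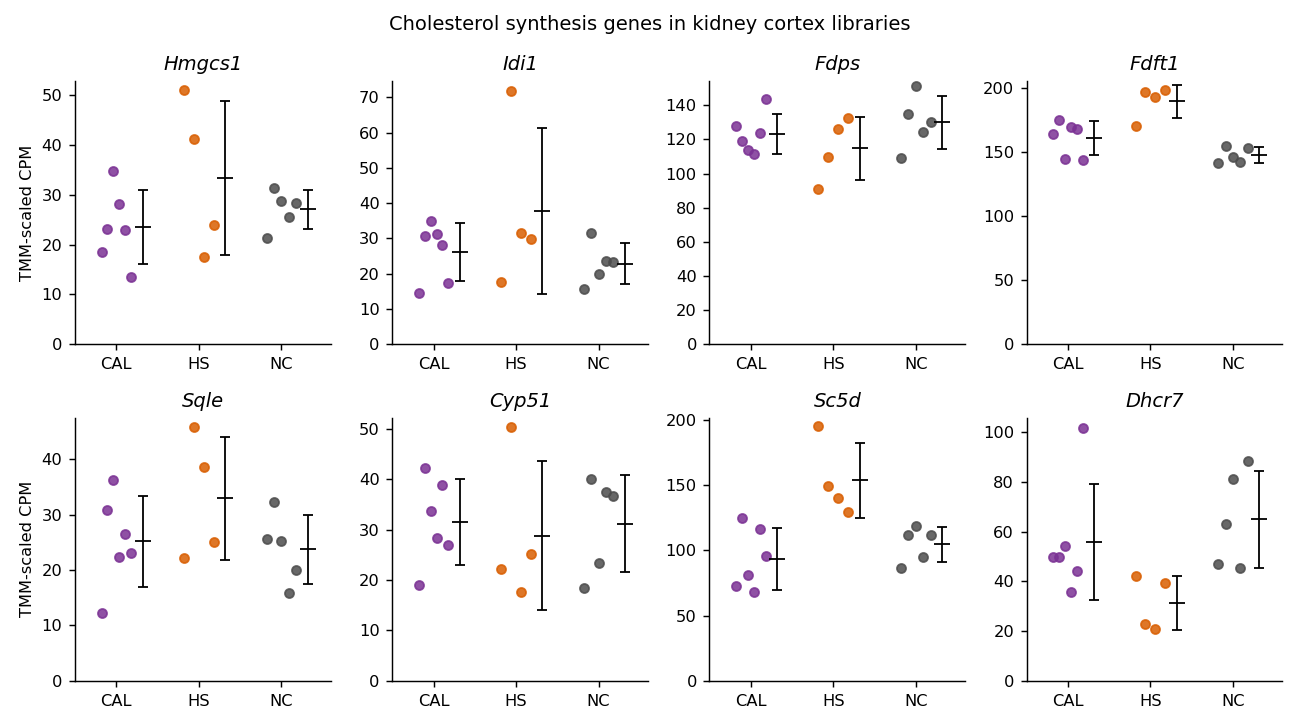
TMM-scaled CPM of the 8 genes in the cortex libraries, 1 panel a gene, with CAL, HS and NC from left to right; points are libraries and bars the mean ± SD (n = 6, 4 and 5). The 4 HS points of Dhcr7 lie below all NC points, those of Sc5d and Fdft1 above them.

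With calcitriol added to high salt, Sc5d was the 1 gene of the 8 called in the cortex. It fell to 93.3 ± 23.4 CPM in CAL (SD, n = 6), against 153.4 ± 29.0 CPM in HS, a log2 fold change of -0.75 (SE 0.17, adjusted p = 0.0405). The CAL libraries read 72.4, 124.9, 81.4, 68.4, 116.5 and 95.9 CPM, all below the lowest HS library at 128.9 CPM. Across the tissue, 57 genes (0.758%) were called in CAL against HS, 37 of them lower (0.492%), and the groups did not overlap in 4.17% of genes, against 1 of the 8. The Sc5d call ended in 9 of 19 alternatives, with adjusted p = 0.0723 when NC was left out of the fit. Adjusted p was 0.0882, 0.0777, 0.0817 and 0.0506 without CAL replicates 1, 3, 4 and 6, and 0.187, 0.111, 0.0736 and 0.0682 without HS replicates 1 to 4. CAL with HS and HS with NC share the HS libraries, so the 2 comparisons are not independent.

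Dhcr7 in CAL read 49.8, 49.9, 54.3, 35.7, 44.1 and 101.6 CPM, against 21.0 to 42.1 CPM in HS. Only CAL replicate 4 lay within the HS range, and CAL replicate 6 lay above every other cortex library. The log2 fold change was 0.76 (SE 0.29, adjusted p = 0.193). Idi1 had -0.65 (adjusted p = 0.325), Hmgcs1 -0.54 (adjusted p = 0.352), Sqle -0.45 (adjusted p = 0.497) and Fdft1 -0.24 (adjusted p = 0.309), none past the threshold. Fdps at 0.10 and Cyp51 at -0.02 were nearest to 0. In CAL cortex, Hmgcs1 ran from 13.4 to 34.9 CPM, Idi1 from 14.5 to 34.9 CPM and Sqle from 12.2 to 36.2 CPM. Cyp51 ran from 19.0 to 42.3 CPM, Fdps from 111.5 to 143.8 CPM and Fdft1 from 143.8 to 174.8 CPM there. Each of these 6 ranges overlapped the HS range of its gene.

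In CAL against NC cortex none of the 8 genes passed the test. Their log2 fold changes ran from -0.24 for Dhcr7 to 0.12 for Fdft1, and the lowest adjusted p was 0.635, for Sc5d. For Sc5d the 95% interval was -0.52 to 0.12, and for Dhcr7 it was -0.69 to 0.21. edgeR called 0 of 7524 genes here (0%), with 892 at an unadjusted p under 0.05, and DESeq2 called 28. Summed over the 8 genes, CAL cortex had 539.5 ± 45.6 CPM, HS 622 ± 45.4 CPM and NC 552 ± 61.3 CPM. Such sums weigh most the genes with the most reads. In HS cortex these were Fdft1 (189.6 CPM), Sc5d (153.4 CPM) and Fdps (114.9 CPM).

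Erythrocyte markers and markers of proliferating cells also differed between HS and NC cortex. CAL overlapped NC in both sums, and overlapped HS in the proliferation sum. The summed erythrocyte markers, 6 of 6 counted, ran from 3598 to 6787 CPM in CAL, from 956 to 1735 CPM in HS and from 3809 to 19758 CPM in NC cortex. The summed proliferation markers, 6 of 6 counted, ran from 64.0 to 103.3 CPM in CAL, from 75.2 to 103.6 CPM in HS and from 49.2 to 74.3 CPM in NC cortex, so HS and NC did not overlap in either sum. The erythrocyte sum was lower in HS colon too, at 64.9 to 389 CPM against 448 to 2563 CPM in NC colon. The proliferation sum overlapped between HS and NC colon. Depth differed as well, with HS replicate 3 the shallowest cortex library at 289529 counts and CAL replicate 1 the deepest at 2265164. With all libraries thinned to 1 depth both genes were still called in HS against NC. The part of depth and of these markers in the values of Dhcr7 and Sc5d was not tested.

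In the colon none of the 8 genes was called in any comparison of the treatments. In HS against NC their log2 fold changes lay between -0.23 for Hmgcs1 and 0.40 for Sqle, and the lowest adjusted p was 0.853. edgeR called 0 of 7217 genes (0%) in that comparison, with 614 at an unadjusted p under 0.05, and DESeq2 called 15. In CAL against HS the range was -0.35 for Sc5d to 0.38 for Hmgcs1 with adjusted p of 0.770 or more, and 1 gene of 7217 (0.0139%) was called. In CAL against NC it was -0.21 for Dhcr7 to 0.34 for Fdft1, and again 0 of 7217 genes (0%) were called, with 278 at an unadjusted p under 0.05 and 0 by DESeq2.

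The spread within groups was wide. Fdps ran from 177.5 to 584.1 CPM in CAL, from 182 to 572 CPM in HS and from 228 to 404 CPM in NC colon. Sqle ran from 32.9 to 154 CPM in CAL, from 23.2 to 207 CPM in HS and from 58.4 to 112.5 CPM in NC. Idi1 ran from 29.2 to 175 CPM in CAL, from 9.93 to 133 CPM in HS and from 32.9 to 101.5 CPM in NC. In all 3 genes the NC range lay inside the CAL range and inside the HS range.

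Dhcr7, called in the cortex, had a log2 fold change of 0.00 in HS against NC colon (adjusted p = 0.9997). No interval is given, because an SE derived from F is unreliable at a fold change this near 0. That SE was 0.53, against 0.43 in CAL against HS and 0.42 in CAL against NC colon. The direct test of the colon effect minus the cortex effect did not pass the threshold (adjusted p = 0.399). It read 39.7, 26.9, 58.1, 49.7 and 16.6 CPM in HS, against 70.1, 36.1, 44.1, 19.7 and 25.0 CPM in NC colon. The groups overlapped throughout. Sc5d read 93.1, 78.5, 370.5, 79.4 and 62.9 CPM in HS, against 114.4, 95.9, 143.4, 97.4 and 91.8 CPM in NC colon. Of the HS libraries, 3 lay below the whole NC range and replicate 1 within it, while replicate 3 was the highest of all 16 colon libraries. HS replicate 3 also had the highest summed immune markers of the colon, 4628 CPM against 407 to 2671 CPM in the other HS libraries. Its summed adrenal cortex markers were 105.8 CPM against 4.21 to 24.4 CPM in the other colon libraries, with Star, Nr5a1 and Cyp21a1 at 0 in HS colon. Its summed adipocyte markers were 303 CPM against 68.1 to 291 CPM in the other colon libraries. The part of these in its Sc5d level was not tested.

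**Figure D2:**
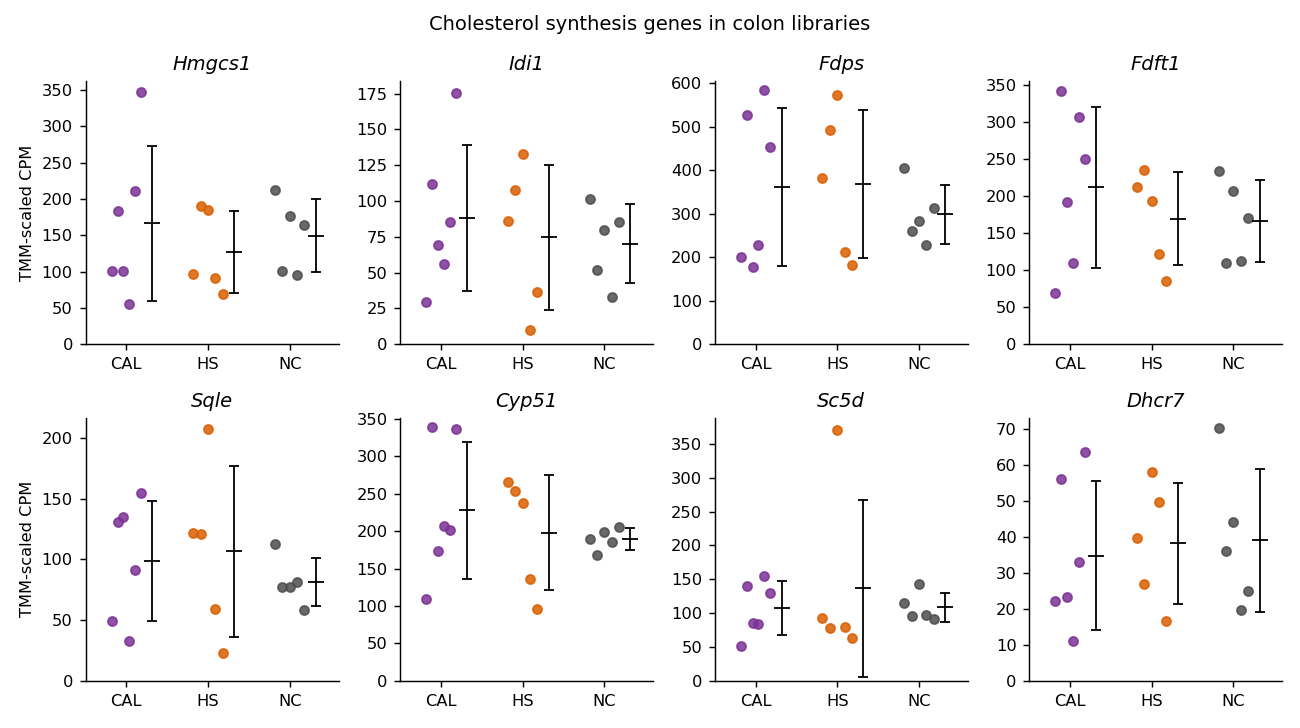
TMM-scaled CPM of the 8 genes in the colon libraries, 1 panel a gene, with CAL, HS and NC from left to right; points are libraries and bars the mean ± SD (n = 6, 5 and 5). The groups overlap for every gene, CAL and HS spread more widely than NC for Cyp51 and Fdps, and Sc5d has 1 HS library at 370.5 CPM.

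**Figure D3:**
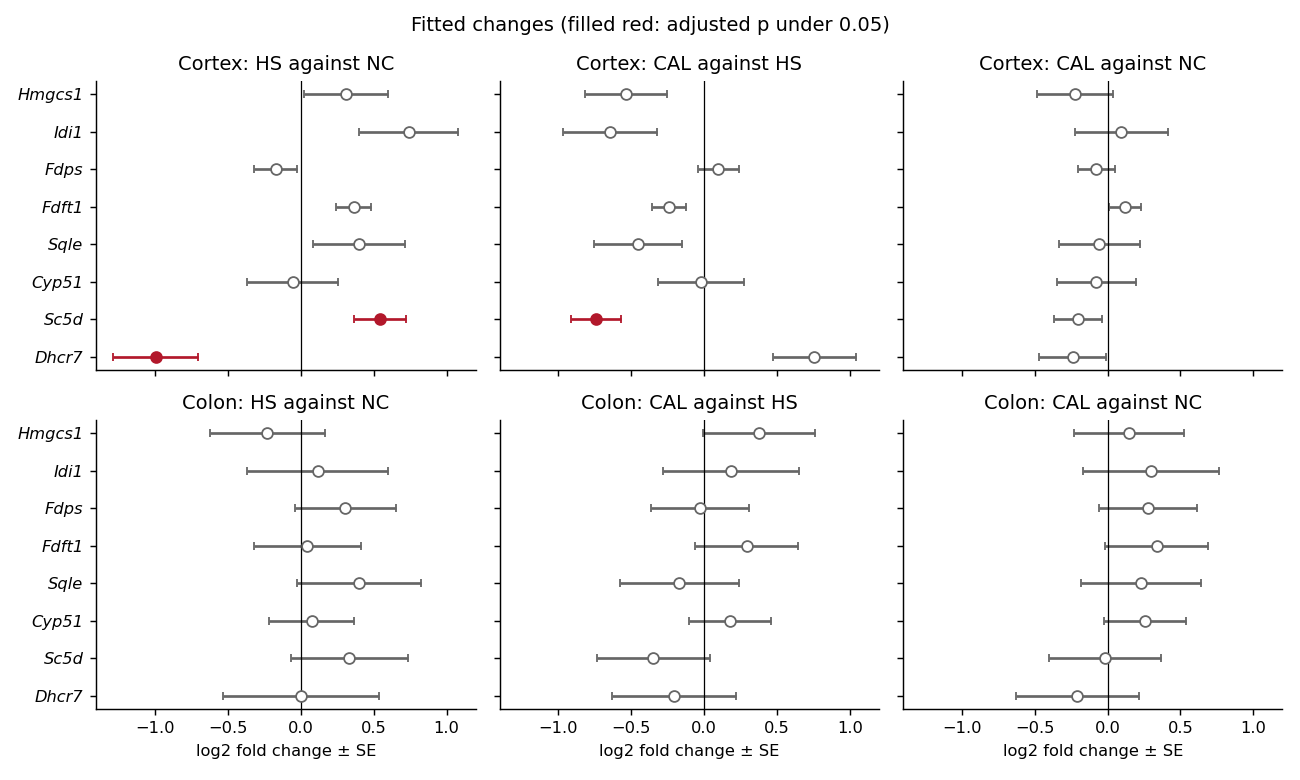
Log2 fold changes with SE bars of the 8 genes, cortex in the upper row and colon in the lower, in HS against NC, CAL against HS and CAL against NC; red marks an adjusted p under 0.05. The red points are Dhcr7 and Sc5d in HS against NC cortex and Sc5d in CAL against HS cortex.

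Whether the treatments acted differently in the 2 tissues was tested directly. The colon effect of HS against NC minus the cortex effect passed the threshold for none of the 8 genes, and for 2 of 9128 genes (0.0219%). Dhcr7 had the largest difference, 1.05 on the log2 scale (SE 0.54, adjusted p = 0.399). For CAL against HS the colon effect minus the cortex effect of Dhcr7 was -1.02 (adjusted p = 0.542), and that of Hmgcs1 was 0.89 (adjusted p = 0.608). edgeR called 0 of 9128 genes for that difference (0%), with 878 at an unadjusted p under 0.05, and DESeq2 called 17.

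In the colon the 8 genes varied together between libraries of the same group. With each gene centred on its group mean, all 28 pairs of the 8 genes correlated positively over the 16 colon libraries, with a median r of 0.71. The weakest pair was Dhcr7 with Idi1 at 0.43 and the strongest Fdps with Fdft1 at 0.82. Over all pairs of tested colon genes, 49.7% were positive. In the cortex, 19 of the 28 pairs were positive over 15 libraries, with a median r of 0.15, a lowest value of -0.61 for Fdps with Hmgcs1 and a highest of 0.81 for Cyp51 with Idi1. Over all pairs of tested cortex genes, 49.9% were positive. The points share library, depth and tissue makeup, the cortex levels of several genes rest on fewer reads, and the difference between the tissues was not tested.

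The pattern can be read in single libraries. Of the CAL colon libraries, replicates 2 and 6 had all 8 genes above the group mean and replicate 5 had 7, while replicates 1 and 4 had none above it. In HS colon, replicate 3 had all 8 above and replicate 5 had none. In NC colon, replicate 1 had all 8 above, and replicates 2 and 4 had 1 each. In the cortex, NC replicate 2 had all 8 above, NC replicate 5 and CAL replicate 5 had 7, and NC replicate 1 had 1. The other cortex libraries had 2 to 6. Hmgcs1 read 100.4, 183.6, 100.3, 54.8, 210.8 and 347.9 CPM in CAL colon replicates 1 to 6. Cyp51 read 109.8, 339.1, 173.7, 206.5, 201.1 and 335.8 CPM, and Fdft1 68.9, 342.2, 193.0, 109.5, 307.5 and 251.1 CPM in the same libraries. Replicates 2 and 6 were thus above the first and the fourth for all 3 genes.

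Summed over the 8 genes, the colon had 1296 ± 570 CPM in CAL, 1218 ± 562 CPM in HS and 1103 ± 239 CPM in NC. The lowest and highest libraries were 630.7 and 1912 CPM in CAL, 573 and 1957 CPM in HS and 853 and 1439 CPM in NC. Each treated group therefore held libraries below and above the whole NC range. Idi1 in HS replicate 4 was the lowest single value, 9.93 CPM from 4 reads. Without HS replicate 3 the 28 pairs stayed positive with a median r of 0.69, and without HS replicates 3 and 4 with a median of 0.75, both added after the values were seen.

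Tissue makeup varied between the same libraries. Summed colon epithelium markers were 19798, 22329 and 22400 CPM in CAL replicates 2, 5 and 6, against 14507, 12826 and 13810 CPM in CAL replicates 1, 3 and 4. In HS colon, replicate 3, highest for the sum of the 8 genes, had the lowest sum of epithelium markers, 12532 CPM, and replicate 1 had 18090 CPM. Smooth muscle markers ranged from 3114 to 5776 CPM in CAL, from 1864 to 23365 CPM in HS and from 2709 to 15501 CPM in NC colon. The part of these in the shared movement was not tested.

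**Figure D4:**
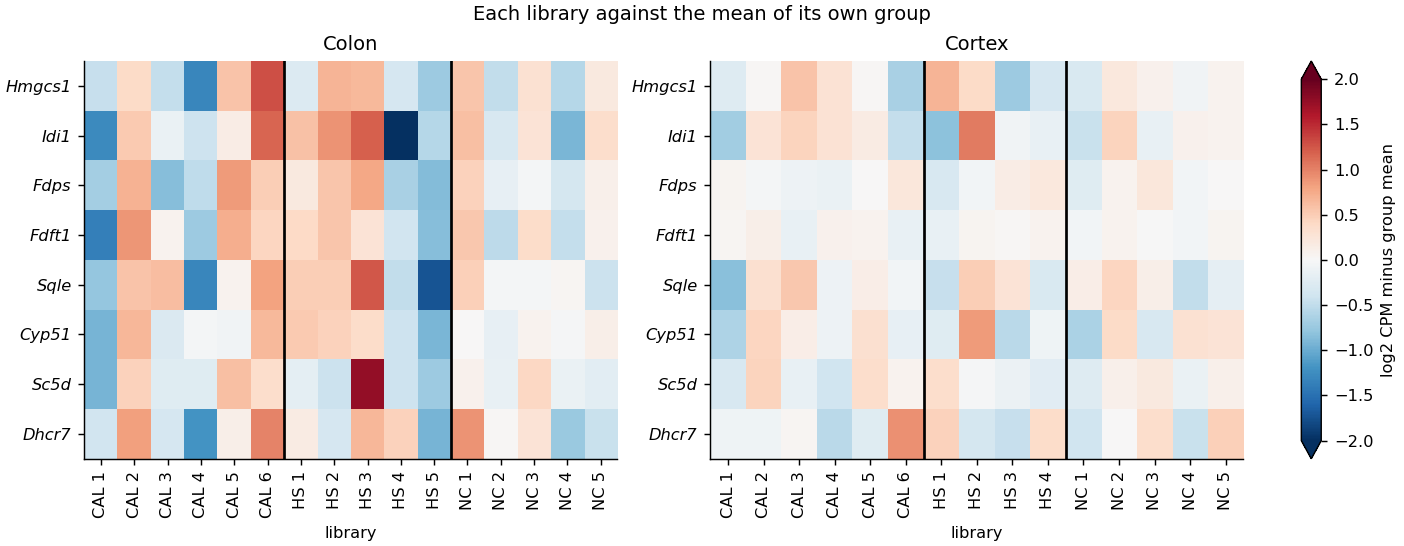
Log2 CPM of each gene in each library minus the mean of its own group, colon at left and cortex at right, with libraries in columns and genes in rows; red is above the group mean, blue below, and the scale ends at 2 and -2. In the colon whole columns are red (CAL 2 and 6, HS 3, NC 1) or blue (CAL 1 and 4, HS 5). In the cortex the colours are paler. There NC 2 has all 8 genes above the mean, NC 5 and CAL 5 have 7, and most other columns are mixed.

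Genes whose centred level was most like the mean of the 8 were named for each tissue by Pearson correlation. In the colon, of 7209 other genes, Msmo1 came 2nd with r = 0.91, Calr 4th with 0.89 and Atp5mc1 5th with 0.88, over 16 libraries. Msmo1 is the sterol C4-methyl oxidase, which acts after Cyp51 and is not one of the 8. Calr is the chaperone calreticulin of the endoplasmic reticulum and Atp5mc1 a subunit of ATP synthase. Among other genes of sterol synthesis in the colon, Mvk had r = 0.72, Acat2 0.70 and Nsdhl 0.59, while Tm7sf2 had 0.38, Ebp 0.26, Mvd 0.18 and Pmvk 0.13. In the cortex the 5 nearest of 7516 genes were Stoml2 (r = 0.84), Ube2l3 (0.84), Commd6 (0.81), Mtch2 (0.77) and Atp5pf (0.77), over 15 libraries, and Msmo1 came 42nd with r = 0.68. The other sterol genes were lower there, Acat2 at 0.39, Nsdhl at 0.34, Ebp at 0.24, Tm7sf2 at 0.0072, Mvd at -0.0026 and Pmvk at -0.062.

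The rest of the pathway was read from 6 lists. Over all genes tested in HS against NC cortex, 7.35% were higher and 3.69% lower. Other enzymes of sterol synthesis, 9 tested in the cortex, had 0 higher and 1 lower in HS against NC, with a median log2 fold change of 0.03. Mvd, mevalonate diphosphate decarboxylase, had -1.07 (adjusted p = 0.0987), Nsdhl 0.41 (adjusted p = 0.306) and Tm7sf2 0.13 (adjusted p = 0.821). In CAL against HS cortex none of the 9 was called, Mvd having 1.03 (adjusted p = 0.215).

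Of 12 genes that control SREBP in the cortex, 2 were higher and 0 lower in HS against NC, against 7.35% and 3.69% of all genes, with a median of 0.25. Erlin1, an endoplasmic reticulum protein that restrains SREBP activation, had 102 ± 18.8 CPM in HS and 57.5 ± 13.3 CPM in NC, a log2 fold change of 0.83 (SE 0.22, adjusted p = 0.0171). Rnf139, a ubiquitin ligase with a sterol-sensing domain, ran from 54.9 to 78.8 CPM in HS and from 34.2 to 51.2 CPM in NC, a log2 fold change of 0.79 (SE 0.20, adjusted p = 0.0139). Srebf2, which encodes SREBP-2, had -0.55 (adjusted p = 0.132) and Insig1 had 0.30, neither of them called. Without HS replicate 1 or 2 the adjusted p of Erlin1 was 0.0730 or 0.0542, and without HS replicate 4 that of Rnf139 was 0.0520. Thinning to 1 depth ended both calls, with an adjusted p of 0.0738 for Erlin1 and 0.115 for Rnf139.

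The non-sterol mevalonate branch and fatty acid synthesis held 3 calls in HS against NC cortex. Of 9 genes of the non-sterol mevalonate branch, 2 were higher and 0 lower, against 7.35% and 3.69% of all genes, with a median of 0.35. Ggps1, which makes geranylgeranyl diphosphate from the product of Fdps, had 47.4 ± 7.39 CPM in HS and 26.0 ± 6.71 CPM in NC (log2 fold change 0.96, SE 0.23, adjusted p = 0.0122). Fnta, the shared alpha subunit of farnesyl and geranylgeranyl transferase, had 141 ± 14.5 CPM in HS and 99.0 ± 19.6 CPM in NC (0.50, SE 0.16, adjusted p = 0.0427). With all libraries thinned to 1 depth the adjusted p of Ggps1 was 0.173, and without HS replicate 4 it was 0.05004. The Fnta call ended in 11 of 18 alternatives, with an adjusted p of 0.125, 0.125 or 0.0614 when HS replicate 1, 2 or 4 was left out, and 0.0765, 0.0945 or 0.0986 when NC replicate 3, 4 or 5 was. Of 8 genes of SREBP-1 driven fatty acid synthesis, 1 was higher and 0 lower, with a median of 0.07. It was Scd2, a stearoyl-CoA desaturase, at 84.3 ± 41.0 CPM in HS and 39.0 ± 9.09 CPM in NC (1.13, SE 0.33, adjusted p = 0.0288). Removing HS replicate 1 or 2 gave Scd2 an adjusted p of 0.0880 or 0.145, and removing NC replicate 3, 4 or 5 gave it 0.0567, 0.0633 or 0.0526.

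Of 6 genes of the LXR, efflux and storage list, 0 were higher and 1 lower, with a median of -0.24. Nr1h2, which encodes LXR-beta, a sensor of oxysterols, had 109 ± 13.4 CPM in HS and 158 ± 12.5 CPM in NC (-0.52, SE 0.14, adjusted p = 0.0221). Without HS replicate 1 or 2 its adjusted p was 0.0557 or 0.103. Of 7 genes of sterol uptake and trafficking, none was called, with a median of -0.17, and Mylip, a ligase for lipoprotein receptors, had 0.73 (adjusted p = 0.107) and Vldlr 0.50 (adjusted p = 0.263). No gene of the 6 lists was called in the other 2 cortex comparisons or in the 3 colon comparisons. In the colon, Scd2 had a log2 fold change of 1.23 in HS against NC (SE 0.45, adjusted p = 0.467) and Acly, ATP citrate lyase, had 0.90 (SE 0.29, adjusted p = 0.438). Tm7sf2 had 0.82 there (SE 0.35, adjusted p = 0.542). Vldlr went the other way, at -1.23 (SE 0.50, adjusted p = 0.524), opposite in sign to its cortex value.

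Between the control tissues 6 of the 8 genes were called, where most of all genes tested were called too. In NC colon against NC cortex, 5 were higher and 1 lower, with a median log2 fold change of 1.27, against 0.06 over all genes. Tissue differences were common, with 5365 of 9128 genes called (58.8%), 2774 higher (30.4%) and 2591 lower (28.4%). Groups did not overlap for 4 of the 8 genes, and for 47.9% of all. The labels give 1 library of each tissue the same number, but nothing ties the 2 to 1 animal.

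Cyp51 read from 160 to 196 CPM in NC colon, against 19.0 to 42.7 CPM in NC cortex, on a scale fitted to both tissues together. The colon libraries were all above the cortex libraries. Its means were 181 ± 13.2 CPM and 32.2 ± 10.3 CPM (SD, n = 5 each), a log2 fold change of 2.46 (SE 0.30, adjusted p = 1.33e-08). Hmgcs1 read from 90.9 to 203 CPM in NC colon, against 21.9 to 33.6 CPM in NC cortex (2.32, SE 0.37, adjusted p = 1.78e-06). Sqle had 77.5 ± 18.9 CPM in NC colon and 24.6 ± 6.91 CPM in NC cortex (1.61, SE 0.39, adjusted p = 0.000708). Fdps, with 284 ± 64.6 CPM in NC colon and 134 ± 15.7 CPM in NC cortex, had 1.08 (SE 0.28, adjusted p = 0.00131). For all 4 the tissues did not overlap.

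Idi1 was higher in the colon as well, at 66.9 ± 26.2 CPM against 23.5 ± 6.51 CPM in NC cortex (1.45, SE 0.45, adjusted p = 0.00623), though its lowest colon library fell within the cortex range. Dhcr7 was the 1 gene lower in the colon, at 37.2 ± 18.9 CPM against 66.8 ± 19.7 CPM in NC cortex (-0.87, SE 0.35, adjusted p = 0.0331). That call ended in 7 of 18 alternatives, among them thinning to 1 depth (adjusted p = 0.248) and the fits without NC cortex replicates 3 (adjusted p = 0.0820) and 5 (0.0844) and without NC colon replicates 2 (0.0571), 4 (0.106) and 5 (0.0889). Fdft1 (0.05, 95% interval -0.51 to 0.61) and Sc5d (-0.08, 95% interval -0.71 to 0.55) were not called. Of 10 other enzymes of sterol synthesis tested, 8 were higher in NC colon and 0 lower, against 30.4% and 28.4% of all genes, with a median of 0.92, Pmvk having 1.77 (adjusted p = 9.51e-06) and Acat2 1.23 (adjusted p = 0.00457). Of 8 genes of SREBP-1 driven fatty acid synthesis, 0 were higher and 5 lower, with a median of -1.40.

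**Figure D5:**
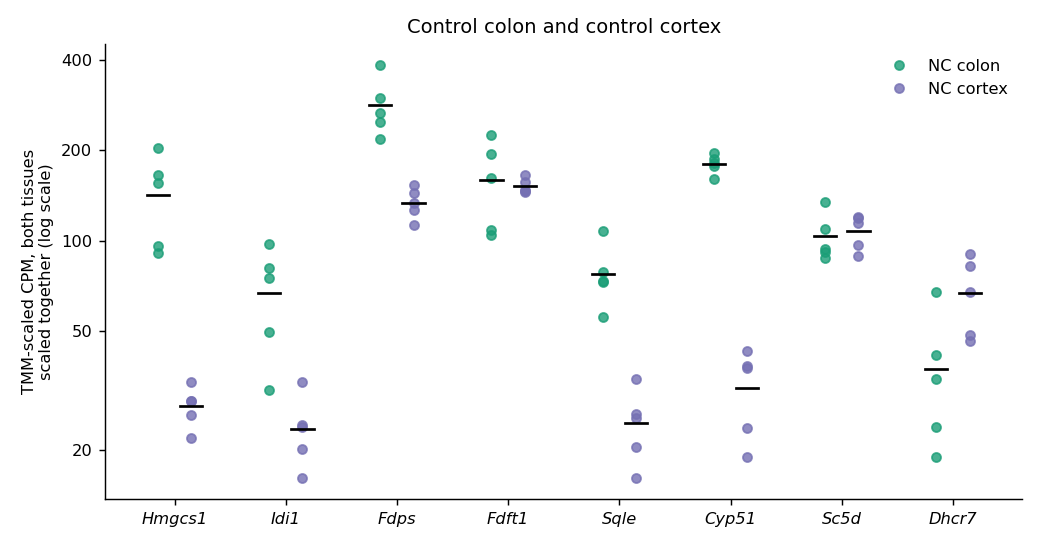
TMM-scaled CPM on a log axis of the 8 genes in the 5 NC colon libraries (green, left of each pair) and the 5 NC cortex libraries (violet, right), both tissues scaled together; bars are means. Hmgcs1, Fdps, Sqle and Cyp51 have all colon points above all cortex points, while Fdft1 and Sc5d share 1 range.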

How the data were processed

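RNA of rat kidney cortex and colon was measured in 31 libraries. The tagmentation kit keeps no strand, so reads of a gene and of an antisense partner cannot be told apart. The deposited values are counts per gene, not normalised by the authors. Per the submitters' processing notes the tools were FastQC 0.11.9, Trimmomatic 0.39, HISAT2 2.1.0 and featureCounts 1.6.5, with the build Rnor_6.0. The annotation and strand setting are not given in the sources used here.

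Counts were tested with edgeR 4.0.16 (quasi-likelihood, R 4.3.3) after TMM scaling, with genes kept at its default minimum count of 10 and total of 15. Each tissue was fitted to its 3 groups, and the tissue differences were fitted to all 31 libraries in 6 groups. Adjusted p are Benjamini-Hochberg values over all genes tested, with a threshold of 0.05. SE come from the quasi-likelihood F, and 95% intervals are 1.96 SE either way. Correlations used log2 CPM with a prior count of 2, centred on group means. The test was checked on simulated counts.

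The 8 genes and the lists were chosen with earlier results of these data known. Named are all 8, the 5 genes nearest to their mean, and the genes of the 6 other lists called within a tissue. Of the entries in those lists, 74 of 75 were found. Also named are the genes of smallest p in each list, in HS against NC and CAL against HS. Outside this rule, other sterol synthesis genes were named in the correlations, and Pmvk and Acat2 between the control tissues. Some genes that this rule names are not reported here. Alternatives were DESeq2 1.42.0, its size factors, no filter, 1 CPM in at least 4 libraries, robust empirical Bayes, limma 3.58.1 voom, thinning, the replicate block, the 2 compared groups alone and leaving out each library. None of 66 within-group pairs of libraries was identical. Counting limits cover counting error only.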

Additional observations from a re-analysis of the deposited data

Results flagged for a closer look

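Of 48 sets of libraries (8 genes in 6 groups), 2 held a library far from its group, and chance alone gives about 1 in 20. Dhcr7 in CAL cortex replicate 6 was 101.6 CPM, while the next CAL library was at 54.3 CPM and the lowest at 35.7 CPM. Sc5d in HS colon replicate 3 was 370.5 CPM, while the next HS library was at 93.1 CPM and the lowest at 62.9 CPM. The 370.5 CPM rest on 134 reads. In the same HS colon library all 8 genes lay above the group mean.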

How the results depend on the processing

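Of 195 alternative counts of called genes among the 8, 173 were within 1.5 times of the value given first, with 0 against 0 taken as within. The 173 include every alternative of the 6 comparisons in which no setting called any of the 8, so they say little about the cortex calls. In HS against NC cortex, 1 gene in place of 2 was called (Dhcr7) with DESeq2 size factors in edgeR, with DESeq2, with no filter on low counts and with 1 CPM in at least 4 libraries. Leaving out 1 library gave 0 to 1 there and 0 to 1 in CAL against HS cortex, where the fit to only the 2 groups compared gave 0. In NC colon against NC cortex, leaving out 1 library gave 5 to 6, and in the other 6 comparisons all alternatives gave 0. The labels do not say whether replicate numbers pair the samples. The deviations of same-numbered libraries correlated between -0.23 and 0.25, and no comparison had all pairs over 0.1. Such correlations cannot show whether same-numbered libraries share an animal or a batch. With the replicate block, 2 of the 8 genes were called in HS against NC cortex, 1 in CAL against HS cortex and 5 in NC colon against NC cortex. The block ended the call of Dhcr7 between the control tissues (adjusted p = 0.368) and that of Fnta (0.0602). Over all genes, HS against NC cortex had 831 calls, 403 after thinning and 324 without HS replicate 2. CAL against HS cortex had 57 calls, 105 with DESeq2, 128 with no filter, 22 with the block, 18 after thinning, 30 with the 2 groups alone and 2 to 80 with 1 library left out. In CAL against NC cortex there were 0 calls, 28 with DESeq2, 83 with no filter, 42 with the block and up to 40 with 1 library left out. In the colon, no filter gave 59 calls in place of 0 in HS against NC and 66 in place of 1 in CAL against HS, and DESeq2 gave 15 and 11. For the difference between tissues, DESeq2 gave 55 calls in place of 2 in HS against NC and 17 in place of 0 in CAL against HS, no filter gave 20 and 8, voom gave 19 in the first, and up to 93 and 54 were called with 1 library left out. Thinning ended the calls of Erlin1 (0.0738), Rnf139 (0.115), Ggps1 (0.173), Scd2 (0.0585) and Fnta (0.0911) in HS against NC cortex and that of Dhcr7 between the control tissues (0.248). Robust empirical Bayes ended that of Scd2 (0.0878). Of 72 fold changes of the 8 genes, 29 changed sign in some alternative, and 0 of the 9 called ones did. Of the 63 not called, 1 was called in some alternative (Fdft1 with voom). At 3 counts, a count of 0 allows up to 1.32 to 11.2 CPM over the libraries, which limits Dhcr7, Idi1, Hmgcs1, Sqle and Cyp51 in the shallow ones. Thinning and 1 library fewer leave fewer genes or samples to test, and the cause was not tested for the other settings.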
